A study of Mus musculus with 8 samples.

Results

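The genes described here are 10 junctional and LIM-domain regulators of the Hippo pathway, namely the angiomotins Amot, Amotl1 and Amotl2, the LIM proteins Ajuba, Wtip and Limd1, the phosphatase Ptpn14, the FERM protein Frmd6 and the WW-domain scaffolds Wwc1 and Wwc2. They were chosen by name, with earlier results of these data known. Each was measured by a single probe set with that gene as its only symbol. All 10 were thus found among the 19938 genes tested. RNA came from Epcam-positive epithelial cells, selected with magnetic beads from dissociated lungs of mouse embryos at E18.5, and was hybridised to 8 arrays. There were 4 control arrays (genotype "Control", not specified further) and 4 knockout arrays ("Mst1/2 CKO"), in which the kinases Mst1 and Mst2 of the Hippo pathway were removed from epithelial progenitors of the lung by ShhCre, a Cre recombinase driven from the Shh locus. The labels do not say whether the control animals carried ShhCre or floxed alleles. The labels call the arrays biological replicates but do not say whether each is 1 animal, so p-values measure the spread between these arrays.

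In the Hippo pathway, Mst1 and Mst2 activate the kinases Lats1 and Lats2, which phosphorylate the coactivators Yap and Taz and keep them out of the nucleus, where they would act with Tead DNA-binding proteins. The regulators described here work around that core at cell junctions and on actin. Angiomotins bind Yap and hold it at tight junctions or on actin, Ajuba-family LIM proteins bind Lats kinases and restrain them at adherens junctions, and Wwc proteins, Ptpn14 and Frmd6 help to activate Lats or bind Yap directly. Several of these genes, Amotl2, Ajuba and Ptpn14 among them, are known from other systems as transcriptional targets of Yap, which makes them part of a feedback loop.

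Of the 10 regulators, 8 rose in the knockout cells and 0 fell at an adjusted p under 0.05 (limma, Benjamini-Hochberg over all 19938 genes), where 18.8% of all genes changed, 8.60% rising and 10.2% falling. Of the 2 others, Amotl1 and Limd1, neither passed that test, and Limd1 was the only regulator with a lower mean in the knockout. In 9 regulators all knockout values lay above all control values, as they did in 10.2% of all genes, and Limd1 was the exception. The median difference, knockout minus control, was 0.53 on the log2 scale over the regulators (1.45-fold) and −0.02 over all genes tested. With the mean of 10 endothelial marker genes per array as a covariate, a fit chosen only once these values were known, 3 regulators rose (Ajuba, Amot and Ptpn14), while the genes called in the whole table dropped from 1715 higher and 2031 lower to 134 and 276.

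Several of these genes had matches to the Tead motif in a short window before their start site, and 5 windows are shown because they hold every match found among the regulators. The motif searched was GGAATG, the core of the sequence that Tead proteins bind, which reads CATTCC on the other strand, so both strands were covered and the forms do not count the same bases again. RefSeq promoter windows of GRCm38.p6 (250 bases before to 50 after the start) were listed for 9 of the 10 regulators, Limd1 being the one not listed, and 5 of these 9 windows held 11 matches in all. Of 32851 windows in the table, 14.7% held at least 1 match, 1.36% at least 2, 0.131% (43 windows) at least 3 and 0.0183% (6 windows) at least 4. The Wtip window, of which the part before the start lies at chr7:34133269-34133518 (minus strand), held 4 matches and the Wwc2 window (chr8:47990545-47990794 (minus strand)) held 3. The Ajuba window (chr14:54577662-54577911 (minus strand)) held 2, and those of Amotl2 (chr9:102717554-102717803 (plus strand)) and Ptpn14 (chr1:189728018-189728267 (plus strand)) held 1 each. The 250 bases before each start are given 5′ to 3′ on the gene's strand, with the motif in capitals.
Wtip: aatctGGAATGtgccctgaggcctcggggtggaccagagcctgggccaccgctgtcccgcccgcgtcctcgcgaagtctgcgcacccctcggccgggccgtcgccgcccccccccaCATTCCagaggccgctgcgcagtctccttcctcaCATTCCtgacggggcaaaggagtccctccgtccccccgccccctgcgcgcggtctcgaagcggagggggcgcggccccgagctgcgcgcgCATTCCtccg
Wwc2: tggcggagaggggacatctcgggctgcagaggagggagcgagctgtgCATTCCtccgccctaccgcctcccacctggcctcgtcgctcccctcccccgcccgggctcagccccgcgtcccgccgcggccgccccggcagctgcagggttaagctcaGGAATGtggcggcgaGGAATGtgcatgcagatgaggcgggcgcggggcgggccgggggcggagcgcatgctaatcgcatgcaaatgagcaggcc
Ajuba: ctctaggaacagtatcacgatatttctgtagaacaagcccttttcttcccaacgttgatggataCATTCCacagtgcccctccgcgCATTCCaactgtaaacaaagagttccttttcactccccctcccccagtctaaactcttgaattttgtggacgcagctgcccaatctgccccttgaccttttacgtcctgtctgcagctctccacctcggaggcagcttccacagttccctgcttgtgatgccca
Amotl2: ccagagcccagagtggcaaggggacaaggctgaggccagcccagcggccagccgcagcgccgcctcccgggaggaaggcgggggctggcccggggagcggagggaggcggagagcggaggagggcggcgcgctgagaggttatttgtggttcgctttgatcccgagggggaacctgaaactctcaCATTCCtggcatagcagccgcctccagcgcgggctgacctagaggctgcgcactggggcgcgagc
Ptpn14: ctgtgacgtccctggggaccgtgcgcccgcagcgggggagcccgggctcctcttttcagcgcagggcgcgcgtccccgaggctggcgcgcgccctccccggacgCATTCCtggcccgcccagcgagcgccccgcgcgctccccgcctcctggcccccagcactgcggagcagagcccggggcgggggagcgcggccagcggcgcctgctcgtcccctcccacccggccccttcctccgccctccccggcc

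In Wtip the first bases of the matches lay 245, 134, 100 and 10 bases before the start, and in Wwc2 they lay 203, 94 and 79 bases before it. In Ajuba they lay 186 and 164 bases before the start, in Amotl2 65 and in Ptpn14 146. The windows of Amot, Amotl1, Wwc1 and Frmd6 held no match, which says only that these letters are not in the 300 bases searched. The 5 genes with a match had differences from 0.52 (Wtip) to 1.19 (Ajuba), and the 4 without from 0.18 (Amotl1) to 0.74 (Amot). Wtip, with 4 matches, had the lowest difference of the 5, and whether the number of matches goes with the difference was not tested. A match is a description of the sequence, and binding was not measured.

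**Figure D1:**
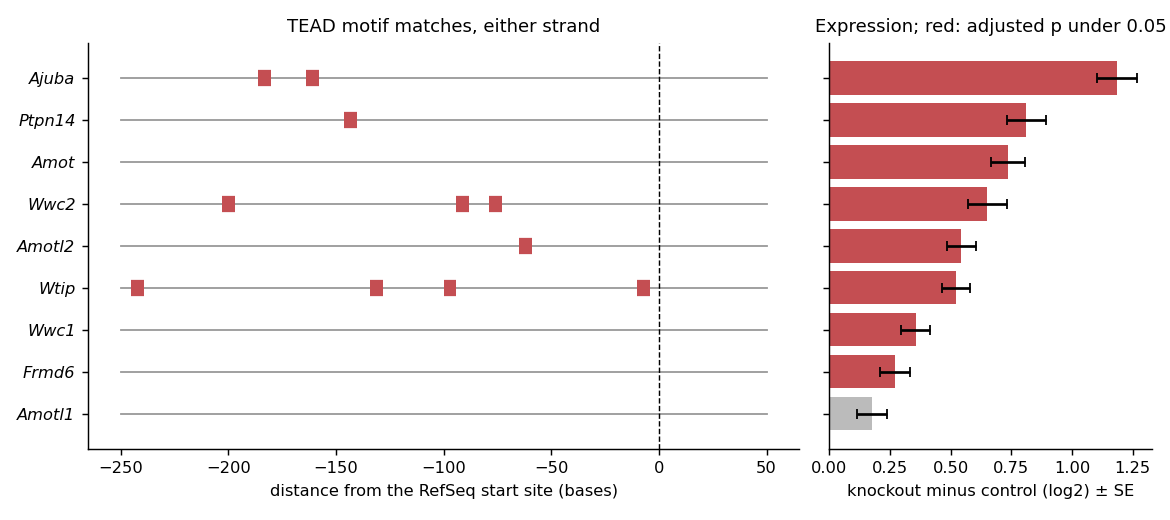
Left, position of the Tead motif matches (red, either strand) in the promoter windows of 9 regulators, as distance in bases from the RefSeq start site (dashed line). Right, the difference knockout minus control (log2) with its standard error, red where the adjusted p is under 0.05, in the same order. All 11 matches lie before the start, in Ajuba, Ptpn14, Wwc2, Amotl2 and Wtip, and Amot rose by 0.74 with no match in its window.

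The 3 LIM proteins of the Ajuba family did not move alike. Ajuba, which binds and restrains Lats kinases at adherens junctions, read 8.84, 8.94, 8.57 and 8.73 (log2 expression) in the control arrays (replicates 1 to 4 in that order, as for each gene that follows) and 10.01, 9.98, 9.86 and 9.99 in the knockout arrays. The lowest knockout value lay 0.91 above the highest control value, a gap wider than the whole spread of either group (0.37 and 0.15). Ajuba rose 2.28-fold (difference 1.19, SE 0.082, adjusted p = 1.02e-05, limma), ranking 39th of all genes by the size of its rise and 51st by p. Its difference stayed between 1.12 and 1.27 under every alternative tried, endothelial covariate included (1.20, adjusted p = 0.0103).

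Wtip, a close relative of Ajuba that likewise binds Lats, read 9.48, 9.47, 9.62 and 9.56 in control and 10.05, 10.05, 10.02 and 10.11 in knockout arrays. The groups were separated by 0.40 and the 4 knockout values lay within 0.091 of each other. Wtip rose 1.44-fold (difference 0.52, SE 0.057, adjusted p = 1.18e-04, limma), and with the endothelial covariate the value was 0.51 (SE 0.11, adjusted p = 0.0509). Limd1, the remaining family member, read 9.15, 9.30, 9.16 and 9.01 in control and 8.91, 8.83, 9.03 and 9.02 in knockout arrays. These groups overlapped, because control replicate 4 lay below knockout replicates 3 and 4. The Limd1 difference was −0.21 (SE 0.075, 95% interval −0.37 to −0.041, adjusted p = 0.0859, limma), and without control replicate 4 it was −0.25 with an adjusted p of 0.0420.

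The differences between these relatives were themselves tested, as the within-array difference of 2 genes set against the group labels, an analysis added after the values were seen. The rise of Ajuba exceeded the change of Limd1 by 1.39 (SE 0.10) and that of Wtip by 0.66 (SE 0.12), and the rise of Wtip exceeded the change of Limd1 by 0.73 (SE 0.096). Each of these gave an exact two-sided permutation p of 0.0286, the smallest that 4 against 4 arrays can give, and 0.0333 after adjustment over the 7 pairs of relatives compared.

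**Figure D2:**
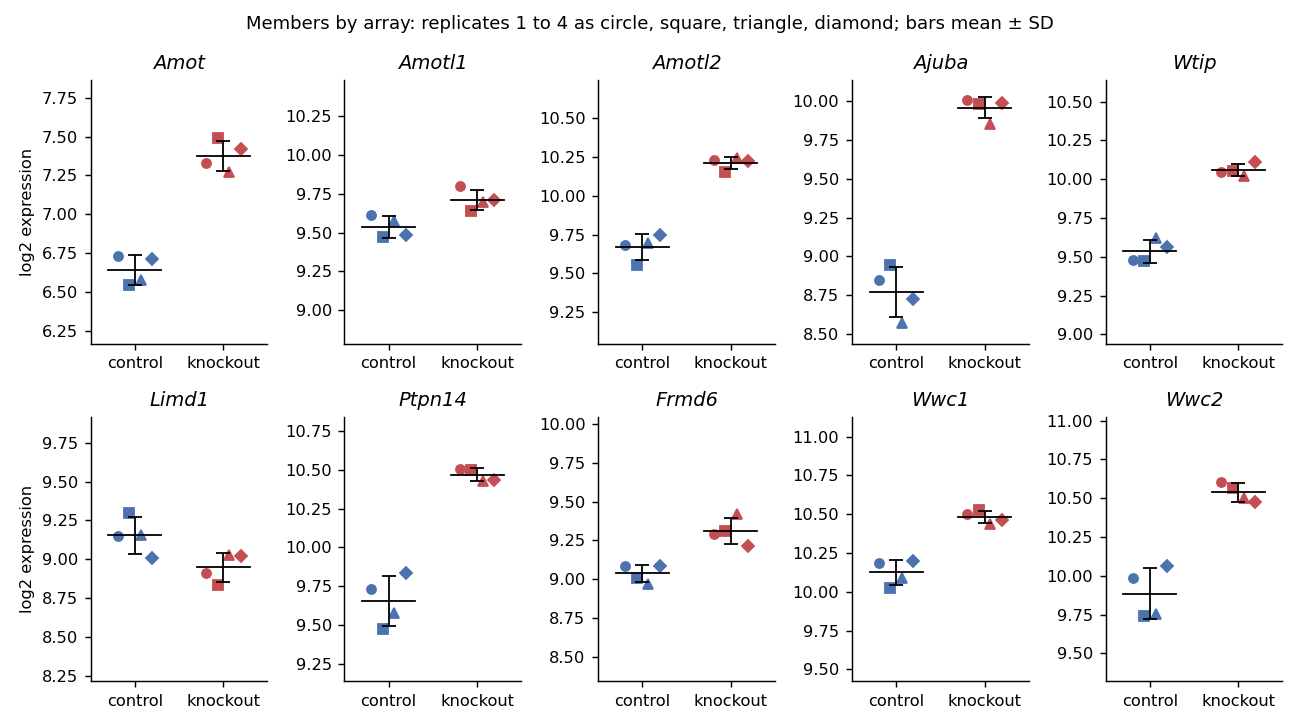
Log2 expression of each regulator in each array, 4 control (blue) and 4 knockout (red), with replicates 1 to 4 as circle, square, triangle and diamond and black bars for mean ± SD; every panel spans the same range of 1.70 log2 units around its own centre. Ajuba shows the widest separation of the groups (0.91), and only Limd1 has overlapping groups.

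Among the angiomotins, Amot and Amotl2 rose, and Amotl1 did not pass the test. Amot, a Yap-binding scaffold first described as a protein that binds angiostatin, read 6.73, 6.54, 6.57 and 6.71 in control and 7.33, 7.49, 7.27 and 7.42 in knockout arrays. All knockout values lay at least 0.54 above all control values, a 1.66-fold rise (difference 0.74, SE 0.071, adjusted p = 5.47e-05, limma). Amot was dim, with 39.0% of genes below it in mean level. Whether the control arrays read it at background is not known, so the size of its rise may be a lower bound. With the endothelial covariate the rise was 0.62 (adjusted p = 0.0453).

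Amotl2, a scaffold that links cadherin junctions to actin, read 9.69, 9.55, 9.70 and 9.75 in control and 10.23, 10.16, 10.24 and 10.22 in knockout arrays. The groups lay 0.40 apart and Amotl2 rose 1.46-fold (difference 0.54, SE 0.060, adjusted p = 1.21e-04, limma). With the endothelial covariate its value was 0.43 (adjusted p = 0.0841). Amotl1, a junctional angiomotin that also binds Yap, read 9.61, 9.47, 9.57 and 9.48 in control and 9.80, 9.64, 9.70 and 9.71 in knockout arrays. The groups did not overlap but lay only 0.026 apart, and the difference of 0.18 (SE 0.060, 95% interval 0.043 to 0.31) had an adjusted p of 0.0690 (limma). After quantile normalization the Amotl1 difference was 0.20 (adjusted p = 0.0426), and tested among genes above the median level it had an adjusted p of 0.0496.

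The angiomotins were also compared within arrays, again after the values were seen. The rise of Amot exceeded the change of Amotl1 by 0.56 (SE 0.087) and that of Amotl2 exceeded it by 0.37 (SE 0.051). Each had an exact two-sided permutation p of 0.0286 (0.0333 adjusted over the 7 pairs). Amot and Amotl2 differed from each other by 0.19 (SE 0.076), with an exact permutation p of 0.0571, and since the rise of Amot may be a lower bound, this difference may be one too.

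**Figure D3:**
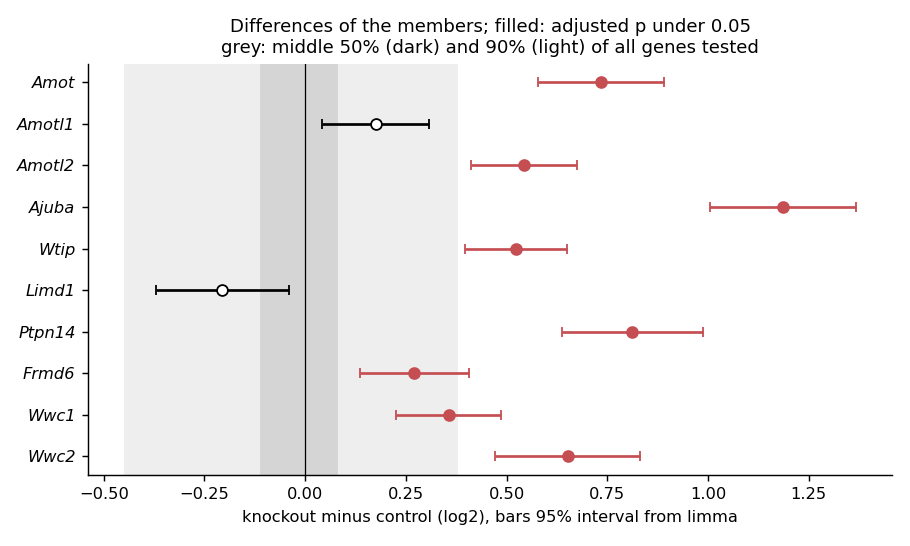
Difference knockout minus control (log2) of each regulator with its 95% interval from limma, filled red where the adjusted p is under 0.05, against the middle 50% (dark grey, −0.11 to 0.080) and middle 90% (light grey, −0.45 to 0.38) of the differences of all 19938 genes. Ajuba, Ptpn14, Amot, Wwc2, Amotl2 and Wtip lie above the light band, and Frmd6, Wwc1, Amotl1 and Limd1 lie inside it.

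Ptpn14, a FERM-domain tyrosine phosphatase that binds Yap and retains it in the cytoplasm, also rose. It read 9.73, 9.47, 9.58 and 9.83 in control and 10.51, 10.50, 10.43 and 10.43 in knockout arrays. The knockout arrays lay within 0.076 of each other and 0.60 above the highest control array, and the rise was 1.76-fold (difference 0.81, SE 0.079, adjusted p = 5.94e-05, limma). With the endothelial covariate it was 0.58 (adjusted p = 0.0498).

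Frmd6, also called Willin and related to the Drosophila Hippo regulator Expanded, had the smallest rise of the 8. It read 9.09, 9.01, 8.97 and 9.09 in control and 9.29, 9.31, 9.42 and 9.21 in knockout arrays, so the groups lay 0.13 apart. The difference was 0.27 (1.21-fold, SE 0.062, adjusted p = 0.0104, limma). The call ended with the mean of 14 mesenchymal marker genes as a covariate (0.26, adjusted p = 0.114) and with the endothelial covariate (0.19, adjusted p = 0.608).

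Both WW-domain scaffolds rose. Wwc1, also called Kibra, which binds Lats and the tumour suppressor Nf2, read 10.19, 10.03, 10.09 and 10.20 in control and 10.50, 10.52, 10.44 and 10.46 in knockout arrays. The groups lay 0.24 apart, a 1.28-fold rise (difference 0.36, SE 0.059, adjusted p = 0.00165, limma). Its relative Wwc2 read 9.98, 9.74, 9.75 and 10.06 in control and 10.60, 10.57, 10.50 and 10.47 in knockout arrays. Here the gap was 0.41 and the rise 1.57-fold (difference 0.65, SE 0.081, adjusted p = 2.54e-04, limma). With the endothelial covariate neither passed, at 0.26 (adjusted p = 0.342) for Wwc1 and 0.42 (adjusted p = 0.164) for Wwc2. The rise of Wwc2 exceeded that of Wwc1 by 0.30 (SE 0.049, exact two-sided permutation p = 0.0286, adjusted 0.0333), a comparison also added after the values were seen.

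In 7 of the 10, Ajuba, Limd1 and Frmd6 being the exceptions, control replicate 2 had the lowest value of the control arrays, against 32.6% of all genes. That array also had the highest mean of 8 leukocyte marker genes (10.68, against 9.75 to 10.31 in the other control arrays), and the part of these cells in the levels was not tested. Without control replicate 2, 8 regulators rose, the count found with any other single array left out. In 8 of the 10 the control arrays varied more than the knockout arrays (SD), as they did in 47.2% of all genes, and the widest contrast was in Ptpn14 (SD 0.16 against 0.042).

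**Figure D4:**
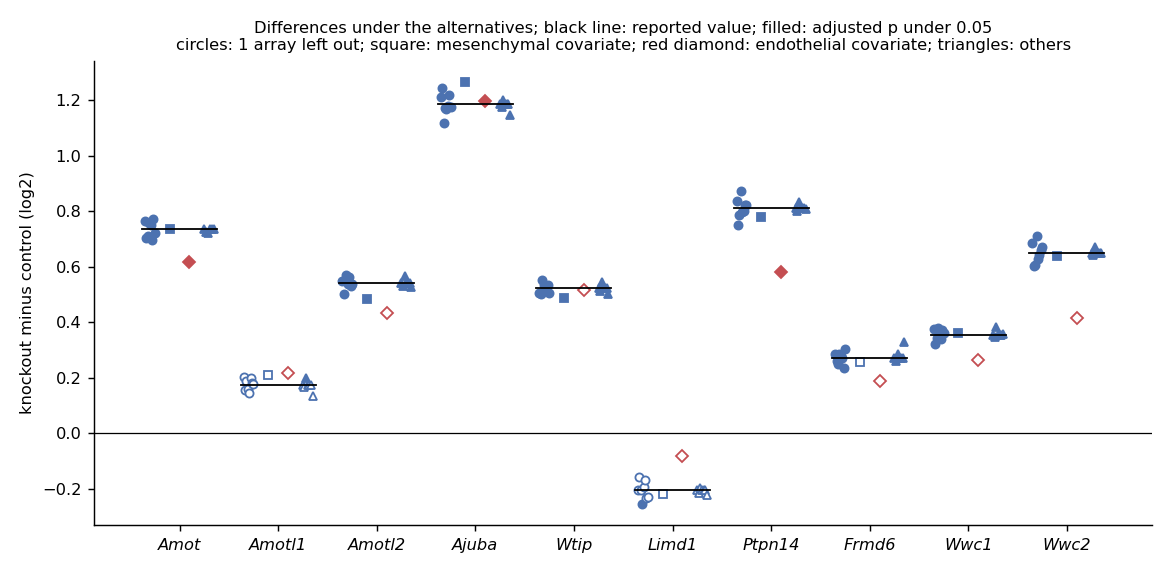
Difference knockout minus control (log2) of each regulator under each alternative, filled where the adjusted p is under 0.05; the black line is the reported value, circles leave out 1 array, the square adds the mesenchymal marker mean as a covariate, the red diamond the endothelial marker mean, and triangles are the other alternatives. No difference changed sign, and with the endothelial covariate Ajuba, Amot and Ptpn14 are filled.

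Selection of epithelial cells left signal of other cells in both groups. Epcam read 10.06 ± 0.15 (SD, n = 4 arrays) in the control and 10.07 ± 0.17 in the knockout, and the mean of 10 epithelial markers was 10.76 to 10.87 in control and 10.85 to 10.98 in knockout arrays, where 2 of the 10 rose, the keratins Krt19 (0.62, SE 0.086) and Krt8 (0.27, SE 0.079). The mean of 10 endothelial markers ranged from 9.16 to 9.49 in control and from 9.54 to 9.63 in knockout arrays, so the groups did not overlap, and 5 of the 10 genes rose. The 14 mesenchymal markers ranged from 8.06 to 8.49 and from 8.33 to 8.87, and 3 of them rose. The 6 mesothelial markers averaged 8.45 to 8.99 and 8.81 to 9.27. Only Msln rose among them (0.75, SE 0.065), the brightest of the 6 (control mean 11.83), and the others did not pass. The 8 leukocyte markers averaged 9.75 to 10.68 and 10.09 to 10.33. The 4 measured erythroid markers averaged 6.96 to 7.13 and 7.04 to 7.31, and none of these 4 passed. The leukocyte marker that passed was Lyz2, a lysozyme gene that type 2 cells also express, which fell (−0.93, SE 0.086), while 6 of the 8 had positive differences that did not pass. The defining endothelial genes were not at 0 in either group, since each of the 10 lay above the median level of all genes, as did 11 of the 14 mesenchymal genes. In such a mixture fewer cells of a type and less RNA per cell cannot be told apart, and because the endothelial mean separates the groups completely, a covariate made from it also carries the genotype. Among alveolar markers 8 of 10 type 1 genes rose and 9 of 10 type 2 genes fell. Averaged per array, type 2 genes went from 12.29 in control to 11.15 in knockout (−1.14), and type 1 genes from 11.30 to 11.88 (0.58). For either set the control and knockout arrays did not overlap. As means per array, both shifts were larger in size than the endothelial (0.30) and mesenchymal (0.40) ones. By the median difference over genes, the type 1 shift (0.38) lay below the mesenchymal (0.41) and above the endothelial (0.35) one. The largest type 1 difference, that of Igfbp2 (2.35), raises the type 1 mean. The type 2 median was −1.13. How far this alveolar change enters the rise of the regulators was not tested.

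The targeted gene Stk4, which encodes Mst1, was lower in the knockout by 0.30 (SE 0.076, adjusted p = 0.0188, limma), but where its probe set lies relative to the floxed exons is unknown, and the value is no check of the deletion. The call ended without knockout replicate 3 (−0.28, adjusted p = 0.0592) and with either marker covariate. The gene of Mst2, Stk3, was not among the genes tested, so it has no value here.

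Other lists of pathway genes had median differences between those of all genes and of the regulators, and the lists were not tested against each other. Of 25 measured core Hippo genes 5 rose and 3 fell, with a median difference of 0.12. Lats2, the kinase that the Ajuba family binds, rose 1.59-fold (0.66, SE 0.064, adjusted p = 5.55e-05), the Yap partner Tead1 rose 1.47-fold (0.56, SE 0.068), and Taok3, a kinase that can phosphorylate Mst kinases, fell 1.51-fold (−0.60, SE 0.067). The partners Lats1 (−0.11, SE 0.060, adjusted p = 0.283), Nf2 (0.036, SE 0.057, adjusted p = 0.749), Wwtr1, the gene of Taz (0.18, SE 0.067, adjusted p = 0.0931), and Yap1 (0.089, SE 0.058, adjusted p = 0.360) did not pass limma's test.

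Of 27 junction and polarity genes 11 rose and 2 fell (median 0.12). Mpdz, a PDZ scaffold of tight junctions, rose 1.68-fold (0.75, SE 0.086), and Pard6b and Prkci, the Par6 and atypical protein kinase C subunits of the apical polarity complex, rose by 0.57 (SE 0.067) and 0.35 (SE 0.067). Of 9 other LIM-domain genes 3 rose and 0 fell (median 0.25), namely the actin-binding Lima1 (0.43, SE 0.057) and the PDZ-LIM proteins Pdlim5 (0.38, SE 0.074) and Pdlim7 (0.43, SE 0.11). The zyxin relatives in that list, named after their values were seen, did not pass, at 0.25 for Zyx, 0.42 for Fblim1, 0.086 for Lpp and 0.037 for Trip6.

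Of 13 ubiquitin ligase, deubiquitinase and tankyrase genes, several of which control angiomotin turnover, 1 rose and 1 fell (median 0.019). The ligase Wwp1 rose by 0.35 (SE 0.066), Siah2, a ligase known to target Lats2, fell by 0.40 (SE 0.069), and Wwp2 did not pass (0.14, SE 0.060, adjusted p = 0.149). Of 21 YAP/TAZ readout genes that are not among the regulators, 12 rose and 2 fell (median 0.37). Lats2 and Tead1, given above with the core Hippo genes, are also among these 12. Ccn2 rose by 1.33 (SE 0.078), Ankrd1 by 1.15 (SE 0.18), the ferlin Myof by 0.68 (SE 0.058) and Ccn1 by 0.33 (SE 0.092). The largest rise of these 21 was that of Nt5e, the ectonucleotidase CD73 (1.42, SE 0.13), and the genes that fell were the growth arrest gene Gadd45a (−0.72, SE 0.078, adjusted p = 1.06e-04) and the kinase Nuak2 (−0.27, SE 0.072, adjusted p = 0.0227), these 3 named after their values were seen. These lists were described and not tested as sets, and 4 of the regulators (Ajuba, Amotl2, Frmd6 and Ptpn14) stand in common lists of YAP/TAZ readout genes themselves.

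**Figure D5:**
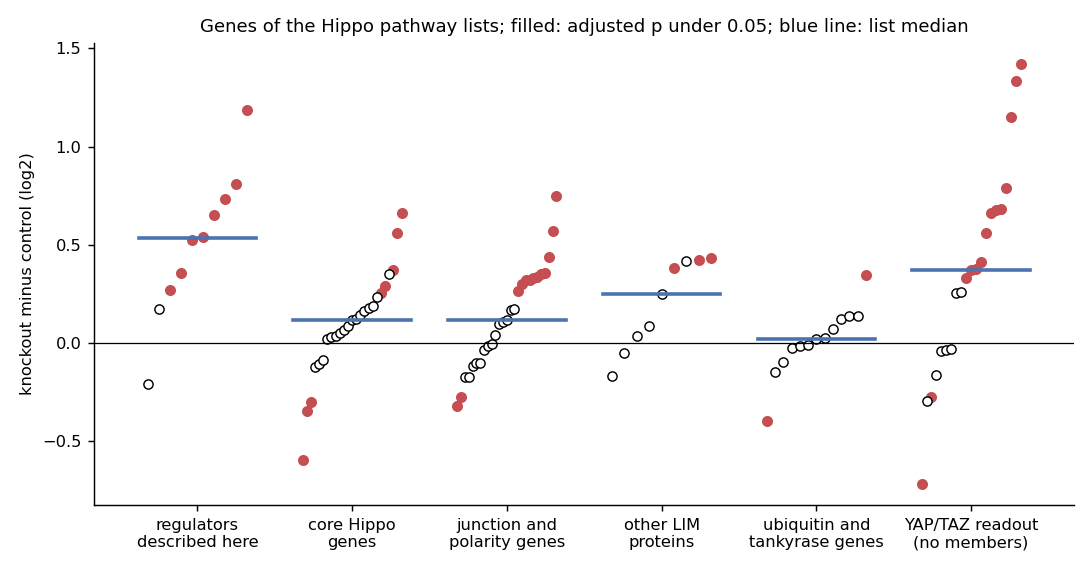
Difference knockout minus control (log2) of every measured gene in each pathway list, filled where the adjusted p is under 0.05, with the list median as a blue line; the last column leaves out the regulators described here. The medians are 0.53 for the regulators, 0.12 for the core Hippo genes, 0.12 for the junction and polarity genes, 0.25 for the other LIM-domain genes, 0.019 for the ubiquitin and tankyrase genes and 0.37 for the readout genes. Lats2 and Tead1 appear in both the core Hippo and the readout column.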

How the data were processed

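Labelled RNA of 8 samples was hybridised to single-colour arrays, with biotin labelling after Affymetrix protocols per the labels. The authors deposited 1 table of values for 35556 probe sets, read as log2 expression from its range (2.89 to 13.95). How they were normalized and summarized, and with which software, is not given in the sources used here. Distributions of the 8 arrays were almost equal as deposited (medians 7.21 to 7.30, at most 0.17 from the mean at any rank), so a difference is measured against the rest of its array, and a change of total RNA per cell would not show. No 2 arrays held identical values.

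A gene was a symbol that is alone on a probe set in the platform annotation (21789 probe sets, of which 21698 matched RefSeq by gene number, and 0 symbols changed). For genes with several probe sets the one with the highest mean was used. Groups were compared with lmFit and eBayes (limma 3.58.1, R 4.3.3) over 19938 genes, tested on simulated data, with a threshold of 0.05. Precision is limited by the number of arrays. The regulators and lists were chosen with earlier results of these data known. Named genes were the regulators, Stk4, 9 pathway genes and the 3 with the smallest p of each pathway list, regulators included where a list holds them. Every other gene was named after its values were seen. Promoters are those of RefSeq, GRCm38.p6. The alternatives were a replicate block, array centring, quantile normalization, a level filter, probe set means, trend and robust settings, marker covariates and arrays left out.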

Additional observations from a re-analysis of the deposited data

Results flagged for a closer look

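The lowest and highest arrays of 22 groups of 4 (10 regulators and Stk4, control and knockout) were compared with the rest of their group by Dixon's ratio, which chance passes in about 1 of 20 groups, and 2 groups passed. For Ajuba, knockout replicate 3 read 9.86, below the other knockout arrays (9.98 to 10.01) and above every control array. For Stk4, control replicate 2 read 9.84, above the other control arrays (9.59 to 9.62). Without control replicate 2 the Stk4 difference was −0.24 (adjusted p = 0.0425, limma).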

How the results depend on the processing

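No difference of a regulator changed sign under any alternative run. The number of regulators that rose was 7 to 9 under the alternatives fixed with the design and 8 with each array left out, and the number that fell was 0 to 1 with each array left out. With the mesenchymal covariate 774 genes were higher and 972 lower, and Frmd6 was at 0.26 (adjusted p = 0.114). With the endothelial covariate, added after the data were seen, 134 genes were higher and 276 lower, 3 regulators rose and the median over all 10 was 0.43; Amotl2 (0.43), Wtip (0.51), Frmd6 (0.19), Wwc1 (0.26) and Wwc2 (0.42) lost their calls. Their standard errors were larger with this covariate, rising from 0.057 to 0.11 (Wtip), 0.060 to 0.11 (Amotl2) and 0.062 to 0.12 (Frmd6). For Wwc1 the rise was from 0.059 to 0.11 and for Wwc2 from 0.081 to 0.13. The Wtip difference hardly moved (0.52 without the covariate), while those of Amotl2, Frmd6, Wwc1 and Wwc2 became smaller. The endothelial mean separates the groups completely, so this covariate also carries the genotype. Why the calls ended was not tested. Amotl1 gained a call after quantile normalization (0.20) and in the fit restricted to the brighter genes (0.18), where 9969 genes were tested and Amot was left out by the filter. Over arrays left out singly Limd1 ranged from −0.25 to −0.16 and Stk4 from −0.33 to −0.24. Stk4 lost its call with the mesenchymal (−0.18) and endothelial (−0.18) covariates and without knockout replicates 1 and 4 together (−0.29).

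With the replicate block 8 regulators rose, with a median of 0.53, and no call on a regulator changed. Same-numbered arrays deviated from their group means with correlations from −0.082 to 0.095 over genes. No control array correlated best with the knockout array of its own number. Such correlations cannot tell whether same-numbered samples shared a litter or a day. No regulator has another probe set with that single symbol, so the planned comparison of other probe sets was not run.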

Other observations

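Across the 15563 tested genes with a promoter window, the share with at least 1 Tead motif match was 17.1% of 1323 genes that rose, 16.3% of 1609 that fell and 14.8% of 12631 that did not pass. A gene with several windows was counted by its window with the most matches. The shares with at least 2 matches were 1.81%, 1.49% and 1.31% in the same order. At least 3 matches were found in 18 genes, of which 8 rose, 1 fell and 9 did not pass. The 8 include Wtip and Wwc2 of the regulators. The others, named after their values were seen, were Radil, an effector of the small GTPase Rap1 in cell adhesion (0.71, adjusted p = 2.52e-04, limma), the actin-severing formin Inf2 (0.45), the keratin Krt20 (0.30), the autophagy gene Wdr45 (0.30, with 4 matches), S100a7a (0.29) and the phosphate transporter Slc20a1 (0.24). The gene that fell was Acss2, an acetyl-CoA synthetase (−1.22). Tead3, a Tead factor, had 3 matches and did not pass (0.12, adjusted p = 0.408). The shares are descriptions of these windows and were not tested.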
